A study of Rattus norvegicus with 6 samples.

Results

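The genes described here are the collagen chains, the lysyl oxidases that cross-link collagen, and the mural cell markers Pdgfrb and Rgs5, as measured in rat liver. They were taken by name: a probe set with exactly 1 annotated symbol, a symbol of the form of a collagen alpha chain, or one of Lox, Loxl1, Loxl2, Loxl3, Loxl4, Pdgfrb and Rgs5. This gave 32 genes of the 14506 named on the array, made up of 25 collagen chains, 5 lysyl oxidases and the 2 mural cell markers. For 31 genes there was 1 probe set, and for Col6a4 the brightest of 3 was used. Collagen chains without a probe set named by a single symbol were not analysed here.

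Liver RNA came from adult male Wistar rats, 30 in all, on 6 diets with 5 rats each; the source field calls them mice, while the organism field and the protocol say rats. The diets were high protein with low fat (HP), normal protein with low fat (NP), high protein with high sucrose and low fat (HP-HS), normal protein with high sucrose and low fat (NP-HS), high protein with high sucrose and high fat (HP-HS-HF), and normal protein with high sucrose and high fat (NP-HS-HF). All rats first ate the normal protein diet for 10 days, then their own diet for 33 to 37 days, and were killed 2 h after a meal of 87.6 kJ. For each diet, equal amounts of RNA from its 5 rats were combined and hybridised to 1 array, so a diet is 1 value, animals cannot be told apart, and the small number of arrays limits the precision. Values are log2 expression. The tissue label was checked against 12 hepatocyte markers, whose means lay between 12.13 (Apoa1) and 13.82 (Alb) on the log2 scale.

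Collagens are triple helices of alpha chains. Fibril-forming types I, III and V make the interstitial matrix of portal tracts and scars, type IV makes the networks of basement membranes, and smaller types decorate or anchor fibrils. Chains are hydroxylated in the endoplasmic reticulum, secreted, trimmed, and then cross-linked outside the cell by lysyl oxidases, copper enzymes that oxidise lysine side chains. In liver the main producers are hepatic stellate cells and portal fibroblasts. Platelet-derived growth factor receptor beta (Pdgfrb) marks stellate cells and pericytes, and Rgs5, a regulator of G protein signalling, marks pericytes and vascular smooth muscle.

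Of the 32 genes, Lox varied far more than the others, Rgs5 came next, and every collagen chain stayed within a narrow band over the 6 diets. The range of a gene, its highest minus its lowest array, was 2.82 for Lox and 0.85 for Rgs5. For the other 30 genes it lay between 0.06 (Col16a1) and 0.47 (Loxl4). The 25 collagen chains had a median range of 0.20 and a highest range of 0.32 (Col14a1), against a median of 0.25 over the 20450 probe sets whose mean lay above log2 5.14. All 32 genes passed this filter, as did 10 of the 12 adipose and pancreas markers, so passing it does not show that liver makes a gene. A range of 1.5-fold or more was found for 2 of the 32 genes (6.25 percent), against 6.47 percent of all probe sets tested, which is no more than the background. A range of 1.2-fold or more was found for 10 genes (31.25 percent), against 47.2 percent of all probe sets tested, and for 3 of the 25 collagen chains (12.0 percent).

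**Figure D1:**
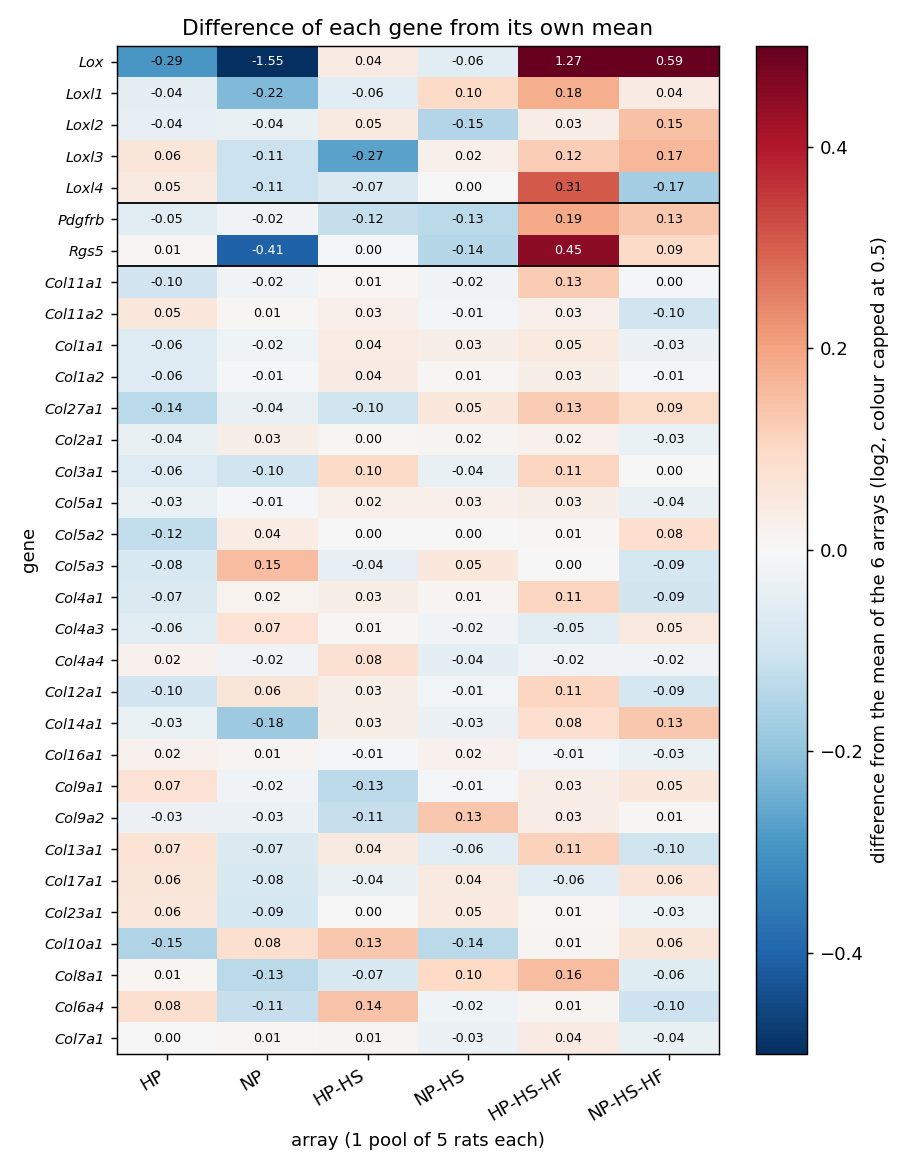
Each cell gives a gene's value on 1 array minus its own mean over the 6 arrays (log2), for the lysyl oxidases at the top, Pdgfrb and Rgs5 below them, and the 25 collagen chains in the lower block. Colour is capped at 0.5 while the printed number is not; Lox and Rgs5 carry the strong colours and the collagen block stays pale.

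Lox, lysyl oxidase itself, is the founding member of the family and starts the cross-links of collagen and elastin (probe set 10804463). Its expression was 6.67 on the HP array, against 5.41 on NP. With high sucrose it was 7.00 on HP-HS, against 6.90 on NP-HS. With high sucrose and high fat it was 8.23 on HP-HS-HF, against 7.55 on NP-HS-HF. NP was the lowest array and lay 1.26 below the next, with its value of 5.41 close to the filter of log2 5.14. Both high sucrose high fat arrays stood above all others, and each high protein array stood above its normal protein partner.

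For Lox on high sucrose with high fat against low fat, the difference was 1.56 (2.95-fold) at high protein and 2.14 (4.41-fold) at normal protein. The fitted difference, their mean, was 1.85 ± 0.244 (SE, 2 pairs of arrays), or 3.61-fold, with an unadjusted p of 0.000204 by limma. Each SE given with a fitted value is that of limma, which also draws on the spread of the other probe sets. Of the 20450 probe sets tested, 0 had a fitted difference of larger size in this comparison. Lox still did not pass the test after Benjamini-Hochberg adjustment over all of them (limma adjusted p = 0.76), and 0 probe sets of any gene did.

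The rest of the Lox comparisons ran in the same direction. High sucrose against low fat gave 0.33 (1.26-fold) at high protein and 1.496 (2.82-fold) at normal protein, and the difference at normal protein was the highest among the 20450 probe sets. Its fitted value was 0.91 ± 0.244 (SE, 2 pairs; unadjusted p = 0.00858, limma adjusted p = 1). Fat added to high sucrose gave 1.23 (2.35-fold) at high protein and 0.65 (1.56-fold) at normal protein. These gave a fitted value of 0.94 ± 0.244 (SE, 2 pairs; unadjusted p = 0.00755, limma adjusted p = 0.813). Lox was thus higher in each of the 4 steps of richer background, by unequal amounts at the 2 protein levels. That inequality was not tested, because each diet has 1 array. By the ordinary t statistic, which uses the spread of Lox alone, the SE was 0.412 for both effects. The unadjusted p of that statistic was 0.157 for sucrose and 0.151 for fat added.

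High protein against normal protein gave Lox differences of 1.26 (2.4-fold) on low fat, 0.10 (1.07-fold) on high sucrose and 0.68 (1.60-fold) on high sucrose with high fat. The fitted value was 0.68 ± 0.199 (SE, 3 pairs; unadjusted p = 0.013, limma adjusted p = 0.414), higher in 3 of 3 pairs. A higher value in all 3 backgrounds was found for 14.6 percent of all probe sets tested. By the ordinary t statistic the SE of the Lox protein difference was 0.34 and its unadjusted p 0.181. The NP array weighed on the Lox values. Without it the protein difference of Lox was 0.39 (limma adjusted p = 0.523), as it was without HP, the sucrose difference 0.48 and the sucrose and fat difference 1.41. Over the other 5 arrays the range of Lox was 1.56, and 37 probe sets had a larger one, against 1 over all 6 arrays, and without HP-HS-HF it was 2.14, with 7 larger. Without NP-HS the sucrose difference was 0.48 too, and without HP-HS the fat difference was 0.50. Leaving out HP or HP-HS raised the sucrose difference to 1.35, and leaving out either array of the high sucrose background gave a protein difference of 0.97.

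**Figure D2:**
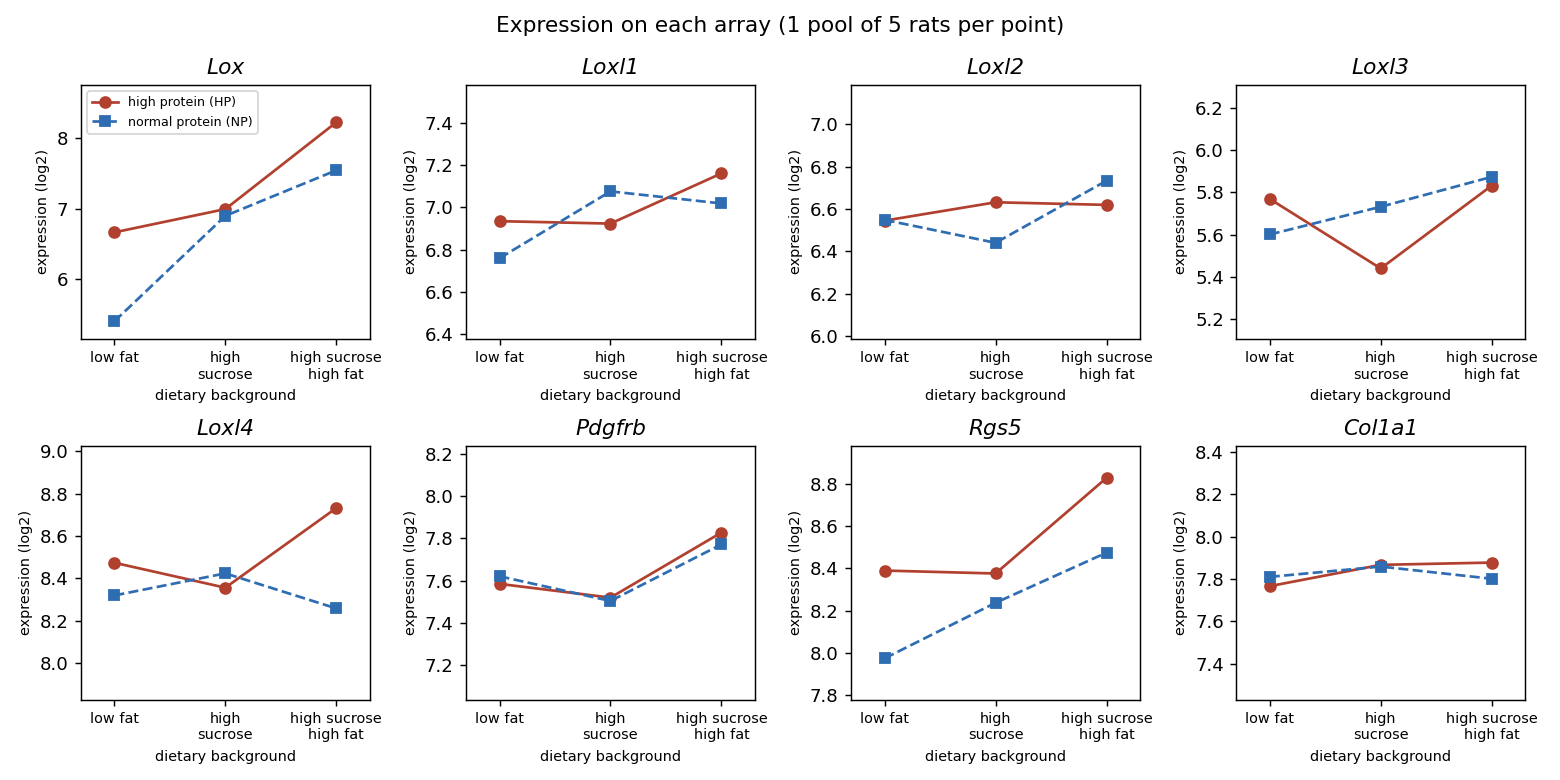
Expression (log2) on each of the 6 arrays for the 5 lysyl oxidases, Pdgfrb, Rgs5 and, for contrast, Col1a1, over the 3 dietary backgrounds on the horizontal axis; circles with solid lines are high protein pools and squares with dashed lines normal protein pools, 1 pool of 5 rats per point. The vertical axis spans a wider interval for Lox, which goes from 5.41 on NP to 8.23 on HP-HS-HF, than for the other panels, which share 1 width.

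The other 4 lysyl oxidases differed much less. Loxl1, which acts mainly on elastin fibres (probe set 10917883), was 6.93 on HP, against 6.76 on NP, 6.92 on HP-HS, against 7.07 on NP-HS, and 7.16 on HP-HS-HF, against 7.02 on NP-HS-HF. It shared its lowest array, NP, and its highest, HP-HS-HF, with Lox, as did Rgs5, Col3a1 and Col8a1. The share of all probe sets with these 2 extremes was not counted. The range of Loxl1 was 0.40, or 0.24 without NP. Loxl4, a family member with scavenger receptor domains (probe set 10715416), was 8.47 on HP, against 8.32 on NP, 8.36 on HP-HS, against 8.42 on NP-HS, and 8.73 on HP-HS-HF, against 8.26 on NP-HS-HF. Its HP-HS-HF value stood 0.26 above HP, and its other 5 arrays overlapped between protein levels. Without HP-HS-HF the range of Loxl4 was 0.22, against 0.47 over all arrays, and 10687 probe sets exceeded it, against 2408. Loxl2, which acts on basement membrane collagen IV (probe set 10781304), was 6.54 on HP, against 6.55 on NP, 6.63 on HP-HS, against 6.44 on NP-HS, and 6.62 on HP-HS-HF, against 6.73 on NP-HS-HF. Loxl3, the dimmest of them (probe set 10856545), was 5.77 on HP, against 5.60 on NP, 5.44 on HP-HS, against 5.73 on NP-HS, and 5.83 on HP-HS-HF, against 5.87 on NP-HS-HF. For Loxl1, Loxl2, Loxl3 and Loxl4 the sign of the protein difference was not the same in the 3 backgrounds, and 0 of these 4 reached an unadjusted p under 0.05 in any of the 4 limma effects.

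Rgs5 shortens signalling through G protein-coupled receptors in mural cells (probe set 10765437). It was 8.39 on HP, against 7.97 on NP, 8.38 on HP-HS, against 8.24 on NP-HS, and 8.83 on HP-HS-HF, against 8.47 on NP-HS-HF. As for Lox, NP was its lowest array and HP-HS-HF its highest, and high protein stood above normal protein in 3 of 3 backgrounds, with differences of 0.41, 0.14 and 0.35 from low fat to high sucrose with high fat. The fitted protein difference was 0.30 ± 0.079 (SE, 3 pairs; unadjusted p = 0.00772, limma adjusted p = 0.364). For sucrose and fat against low fat it was 0.47 ± 0.097, or 1.38-fold (SE, 2 pairs; unadjusted p = 0.00241, limma adjusted p = 0.771). For fat added to sucrose it was 0.34 ± 0.097 (SE, 2 pairs; unadjusted p = 0.0107, limma adjusted p = 0.889), and without the HP-HS array it was 0.22. High sucrose alone gave -0.01 at high protein and 0.26 at normal protein. At high protein Rgs5 was thus about level, as 18672 of the 20450 probe sets had a difference of larger size, while Lox was at 0.33. A range as large as that of Rgs5 was exceeded by 442 of the 20450 probe sets (2.16 percent). Without HP-HS-HF the Rgs5 range was 0.50 and 1552 probe sets exceeded it, and without NP it was 0.59 and 1060 did.

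Pdgfrb (probe set 10802040) was 7.58 on HP, against 7.62 on NP, 7.52 on HP-HS, against 7.50 on NP-HS, and 7.83 on HP-HS-HF, against 7.77 on NP-HS-HF. Its 2 high sucrose high fat arrays were the highest and its 2 high sucrose arrays the lowest, with little distance between protein levels. Fat added to sucrose gave 0.29 ± 0.080 (SE, 2 pairs, limma unadjusted p = 0.0102, limma adjusted p = 0.889), higher in 2 of 2 pairs. How many of all probe sets were higher in both pairs was not counted. Sucrose and fat against low fat gave 0.20 ± 0.080 (unadjusted p = 0.0464, limma adjusted p = 0.953), and the protein difference was 0.01 ± 0.065. Less RNA per cell and fewer cells of a type cannot be told apart in these liver pools, here or in any value above or below.

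Promoter sequence was at hand for 24 of the 32 genes in the RefSeq table (GRCr8), among them Rgs5 and Loxl4, which had the next largest ranges after Lox over the 6 arrays, with HP-HS-HF deciding that of Loxl4 as given above. The 250 bases before the annotated start of each are shown, because these genes were highest on HP-HS-HF together with Lox, and each is read 5′ to 3′ on the strand of its gene. Capitals mark CAGAC, a sequence that SMAD proteins of the transforming growth factor beta pathway can bind, on either strand. Rgs5 lies on the plus strand at chr13:84380827-84381076 and Loxl4 on the minus strand at chr1:251365578-251365827.
Rgs5: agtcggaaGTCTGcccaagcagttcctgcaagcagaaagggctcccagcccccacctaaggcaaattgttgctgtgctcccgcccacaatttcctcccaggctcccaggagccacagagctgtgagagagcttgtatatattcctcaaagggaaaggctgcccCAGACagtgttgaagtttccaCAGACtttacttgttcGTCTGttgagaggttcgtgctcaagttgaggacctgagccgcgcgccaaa
Loxl4: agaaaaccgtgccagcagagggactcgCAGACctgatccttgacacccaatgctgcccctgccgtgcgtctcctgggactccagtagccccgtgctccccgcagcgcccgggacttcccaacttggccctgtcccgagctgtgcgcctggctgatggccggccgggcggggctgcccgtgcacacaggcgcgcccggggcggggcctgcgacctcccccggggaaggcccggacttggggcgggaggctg

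The Rgs5 stretch held CAGAC at 4 places and the Loxl4 stretch at 1, and 42.9 percent of the 33469 rat windows of 250 bases held it at least once. How many windows held it at 4 places or more was not counted, so the Rgs5 count has no background beside it. The other motifs searched on both strands were ACGTG and GCGTG, the core letters of hypoxia response elements, and TATAAA, the TATA box. They gave 0 matches in the Rgs5 and Loxl4 stretches, and were present in 16.6 percent, 25.9 percent and 12.9 percent of all windows. ACGTG and its own complement overlap in CACGTG. A match is a run of letters and not a shown binding site.

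The chains of collagen I, the bulk of interstitial fibrils, differed little between diets. Col1a1 (probe set 10737532) was 7.77 on HP, against 7.81 on NP, 7.87 on HP-HS, against 7.86 on NP-HS, and 7.88 on HP-HS-HF, against 7.80 on NP-HS-HF. Col1a2 (probe set 10853559) was 7.89 on HP, against 7.95 on NP, 7.997 on HP-HS, against 7.96 on NP-HS, and 7.98 on HP-HS-HF, against 7.95 on NP-HS-HF. Both chains of the collagen I trimer were lowest on HP, and their ranges of 0.11 (1.08-fold) each were smaller than those of 93.4 and 94.3 percent of the probe sets tested.

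Col3a1, the single chain of collagen III (probe set 10923052), was 7.68 on HP, against 7.65 on NP, 7.84 on HP-HS, against 7.71 on NP-HS, and 7.85 on HP-HS-HF, against 7.74 on NP-HS-HF. It was higher at high protein in 3 of 3 backgrounds, by 0.03, 0.13 and 0.11, and its range was 0.20. Collagen V nucleates collagen I fibrils. Its chain Col5a1 (probe set 10834731) was 7.28 on HP, against 7.30 on NP, 7.34 on HP-HS, against 7.34 on NP-HS, and 7.34 on HP-HS-HF, against 7.27 on NP-HS-HF. Col5a2 (probe set 10927728), the direct neighbour of Col3a1 among protein-coding genes in GRCr8, was 6.53 on HP, against 6.69 on NP, 6.66 on HP-HS, against 6.65 on NP-HS, and 6.66 on HP-HS-HF, against 6.74 on NP-HS-HF. Col5a3 (probe set 10915353) was 6.44 on HP, against 6.67 on NP, 6.48 on HP-HS, against 6.57 on NP-HS, and 6.52 on HP-HS-HF, against 6.43 on NP-HS-HF. The 3 chains of collagen V had no array order in common: Col5a1 was highest on HP-HS-HF, Col5a2 on NP-HS-HF and Col5a3 on NP.

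Among the other fibril-forming chains, Col27a1 (probe set 10869412) was 7.44 on HP, against 7.54 on NP, 7.48 on HP-HS, against 7.63 on NP-HS, and 7.71 on HP-HS-HF, against 7.67 on NP-HS-HF. Its 2 high sucrose high fat arrays stood above its other 4. The cartilage chains Col2a1, Col11a1 and Col11a2 had ranges of 0.07, 0.22 and 0.15.

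Of collagen IV, 3 chains carried a name. Col4a1, of the common basement membrane network (probe set 10789594), was 6.73 on HP, against 6.82 on NP, 6.83 on HP-HS, against 6.82 on NP-HS, and 6.91 on HP-HS-HF, against 6.71 on NP-HS-HF. Col4a3 (probe set 10924719) was 6.31 on HP, against 6.44 on NP, 6.37 on HP-HS, against 6.35 on NP-HS, and 6.31 on HP-HS-HF, against 6.42 on NP-HS-HF. Col4a4 (probe set 10929396) was 6.36 on HP, against 6.32 on NP, 6.41 on HP-HS, against 6.29 on NP-HS, and 6.32 on HP-HS-HF, against 6.32 on NP-HS-HF. Col4a3 and Col4a4 belong to 1 trimer known best from the kidney filter, and their ranges were 0.13 and 0.12. The genes lie head to head on opposite strands, with 412 bases between their starts in GRCr8, and the 88 bases at chr9:91323740-91323827 fall in the upstream window of both. They are shown on the plus strand as the stretch the pair shares.
Col4a3 and Col4a4: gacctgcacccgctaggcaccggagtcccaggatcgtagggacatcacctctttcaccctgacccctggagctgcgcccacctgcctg

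The high protein minus normal protein difference of the pair had opposite signs on low fat, at -0.13 for Col4a3 and 0.04 for Col4a4. On high sucrose both were positive, at 0.02 and 0.12, and on high sucrose with high fat both were negative, at -0.10 and -0.003. These are differences below 1.1-fold and no test was past its threshold.

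Col14a1 encodes a chain that coats fibrils and is made by fibroblasts and stellate cells (probe set 10896558). It was 8.52 on HP, against 8.37 on NP, 8.58 on HP-HS, against 8.53 on NP-HS, and 8.64 on HP-HS-HF, against 8.69 on NP-HS-HF. Its order of backgrounds was that of Lox at each protein level, low fat lowest and high sucrose with high fat highest. Col3a1 and Col27a1 had this order too, and its share among all probe sets was not counted. NP was again the lowest array, as it was for 28.12 percent of the genes described here. Among all probe sets tested NP was lowest for 15.8 percent. HP was also lowest for 28.12 percent of the genes. For Col14a1, sucrose and fat against low fat gave 0.22 ± 0.087 (SE, 2 pairs; unadjusted p = 0.0447, limma adjusted p = 0.953). It was 0.14 both without NP-HS-HF (unadjusted p = 0.283) and without NP (unadjusted p = 0.233). The other chains of its class were Col9a1, Col9a2, Col12a1 and Col16a1, with ranges between 0.06 and 0.25.

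Col6a4, a chain of the beaded filaments (probe set 10912813), was 6.15 on HP, against 5.95 on NP, 6.21 on HP-HS, against 6.04 on NP-HS, and 6.08 on HP-HS-HF, against 5.96 on NP-HS-HF. High protein stood above normal protein in 3 of 3 backgrounds, as it did for 14.6 percent of all probe sets tested. The fitted difference of Col6a4 was 0.16 ± 0.065 (SE, 3 pairs, unadjusted p = 0.0458, limma adjusted p = 0.561). The mean of its 3 probe sets gave 0.07. Col7a1, of anchoring fibrils, had a range of 0.08.

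Of the short network-forming chains, Col8a1, known from vessel walls (probe set 10750685), was 6.42 on HP, against 6.27 on NP, 6.33 on HP-HS, against 6.51 on NP-HS, and 6.56 on HP-HS-HF, against 6.35 on NP-HS-HF. Col10a1, known from growing cartilage (probe set 10830287), was 6.06 on HP, against 6.28 on NP, 6.34 on HP-HS, against 6.07 on NP-HS, and 6.22 on HP-HS-HF, against 6.26 on NP-HS-HF. In both genes the sign of the protein difference was not the same in the 3 backgrounds. The transmembrane chains Col13a1, Col17a1 and Col23a1 had ranges of 0.21, 0.14 and 0.14, and Col13a1 was higher at high protein in 3 of 3 backgrounds, by 0.14, 0.10 and 0.21.

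Across all 32 genes, 0 passed the limma test at an adjusted p under 0.05 for the protein effect (lowest adjusted p = 0.364), while 0.044 percent of all probe sets tested did. For sucrose, for fat added to sucrose, and for sucrose with fat, 0 passed too, as did 0 percent of all probe sets tested. At an unadjusted p under 0.05 the protein effect had 3 of the 32 genes (Lox, Rgs5 and Col6a4), against 8.71 percent of all probe sets tested. Sucrose had 1 (Lox), against 3.02 percent. Fat added to sucrose had 3 (Lox, Rgs5 and Pdgfrb), against 4.95 percent, and sucrose with fat had 4 (Lox, Rgs5, Pdgfrb and Col14a1), against 5.18 percent. These p-values are from limma. By the ordinary t statistic, p was above 0.05 for Lox in protein, sucrose and fat added, and for Rgs5 in protein and fat added. It stayed under 0.05 for Rgs5 in sucrose with fat, for Pdgfrb in both its effects and for Col6a4 in protein. For the 25 collagen chains the medians of the fitted differences were 0.01 for protein, 0.04 for sucrose, 0.002 for fat added and 0.02 for sucrose with fat, with no chain outside -0.10 to 0.22. The medians over all probe sets tested were -0.001, -0.0001, -0.003 and -0.003 in the same order.

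In pairs of arrays, Lox was the gene at 1.5-fold or more wherever one was, in 7 of 9 differences, and no difference of another gene exceeded 1.39-fold (Loxl4) outside Rgs5 or 1.25-fold among collagens (Col14a1). For high against normal protein, 1 gene reached 1.5-fold on low fat (background 1.38 percent of probe sets), 0 on high sucrose (1.39 percent) and 1 on high sucrose with high fat (1.5 percent). At 1.2-fold the counts were 2, 2 and 3 of 32, against 12.4, 11.9 and 14.6 percent of all probe sets tested. For high sucrose against low fat, 0 reached 1.5-fold at high protein (0.89 percent) and 1 at normal protein (0.866 percent), and 1.2-fold was reached by 3 and 2 genes, against 9.03 and 9.54 percent. For fat added to sucrose the counts were 1 at high protein (1.27 percent) and 1 at normal protein (0.934 percent), and at 1.2-fold 5 and 3, against 11.3 and 9.71 percent. For sucrose with fat against low fat they were 1 at high protein (1.19 percent) and 1 at normal protein (1.16 percent), and at 1.2-fold 2 and 4, against 11.9 and 11.7 percent. Differences that share an array are not independent, and with 32 genes a single gene is 3.12 percent.

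**Figure D3:**
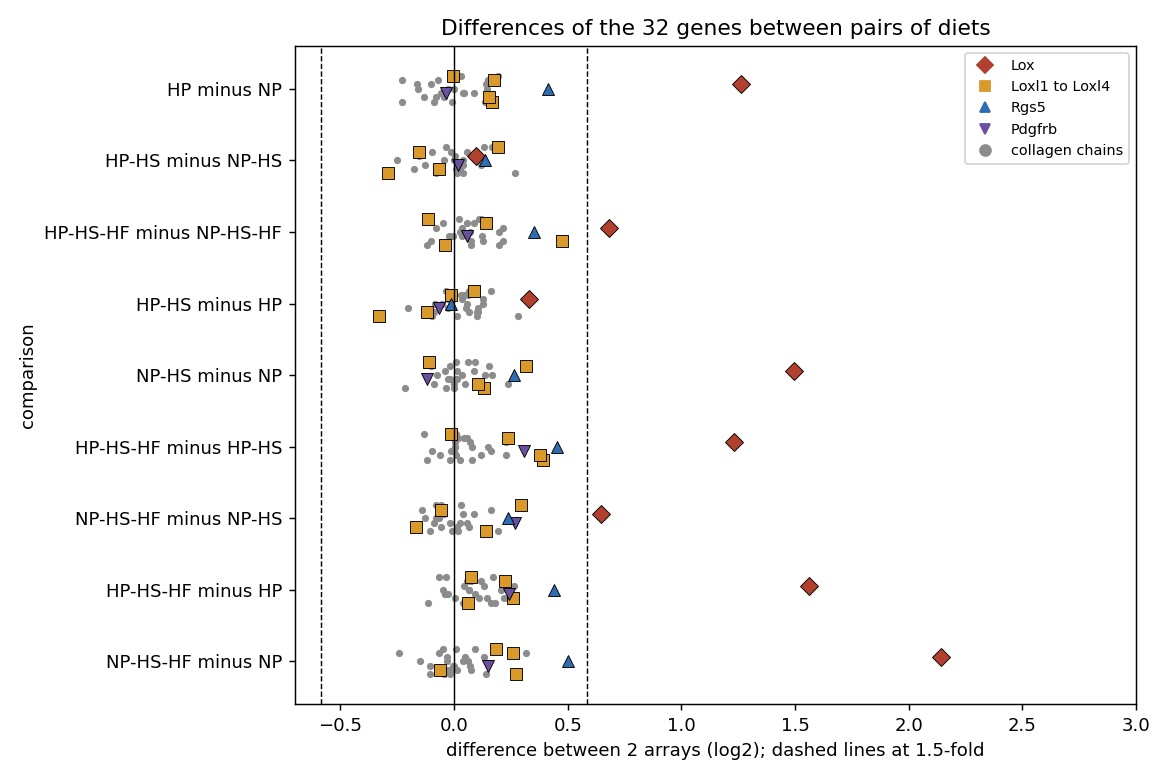
Each symbol is 1 of the 32 genes and its place on the horizontal axis the difference between 2 arrays (log2), in the 9 comparisons listed down the side; vertical offsets within a row only separate the symbols. Diamonds (Lox) lie beyond the dashed line of 1.5-fold in 7 rows, while grey points (collagen chains) stay within 0.32 of 0.

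Direction was mixed from gene to gene. High protein stood above normal protein in all 3 backgrounds for 6 of the 32 genes, against 14.6 percent of all probe sets tested. They were Lox, Rgs5, Col3a1, Col6a4, Col11a2 and Col13a1. It stood below in all 3 for 0, against 14.9 percent, and the other 26 had mixed signs. High sucrose with high fat stood above low fat at both protein levels for 13 genes, against 23.4 percent of all probe sets, and below at both for 2, against 24.2 percent. The HP-HS-HF array was the one on which the genes most often peaked. It was the highest array for 15 of the 32 genes (46.88 percent), against 19.62 percent of all probe sets tested, and the lowest for 0, against 19.92 percent. On it 21 of the 25 collagen chains (84.0 percent) lay above their own mean, against 50.8 percent of all probe sets, by a median of 0.03. It is 1 pool, so the diet and the pool cannot be told apart.

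Markers of the cells that make or neighbour these genes were read on the same arrays. On HP-HS-HF 18 of 22 stellate cell and myofibroblast markers lay above their own mean (median 0.05), as did 8 of 10 pericyte and smooth muscle markers (median 0.11), 10 of 15 endothelial markers (median 0.03), 6 of 6 bile duct markers (median 0.14), 7 of 8 lymphocyte and neutrophil markers (median 0.04), 9 of 14 macrophage markers (median 0.03), 7 of 10 adipose and pancreas markers (median 0.04) and 5 of 12 hepatocyte markers (median -0.01). Myh11 and Cnn1 are in both the stellate and the pericyte list, so the counts of these lists are not separate. The part of the markers in the values of Lox, Rgs5 and the collagens was not tested. The myofibroblast marker Acta2 and the quiescent stellate marker Lrat had ranges of 0.08 and 0.26. The widest ranges of the stellate cell and myofibroblast list were 0.49 (Tagln), 0.45 (Hgf), 0.44 (Ngfr) and 0.44 (Myh11). On NP, where Lox and Rgs5 were lowest, 51.3 percent of all probe sets tested lay above their mean. There 10 of 22 stellate and 5 of 10 pericyte markers lay above it, with medians of -0.01 and 0.02. Of the endothelial and macrophage markers 0 of 15 and 0 of 14 did, with medians of -0.05 and -0.09. So did 2 of 12 hepatocyte, 4 of 6 bile duct, 3 of 8 lymphocyte and neutrophil, and 7 of 10 adipose and pancreas markers. Of the macrophage markers, 8 of 14 had an unadjusted p under 0.05 for protein, against 8.71 percent of all probe sets tested, all with higher values at high protein, 14 of 14 fitted differences lay above 0 with a median of 0.20, and 0 passed after adjustment. For fat added to sucrose, the median of the macrophage markers was -0.17, with 4 of 14 above 0. Lox and Rgs5 were at 0.94 and 0.34 in that effect. The part of the macrophage markers in the differences of Lox and Rgs5 was not tested.

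**Figure D4:**
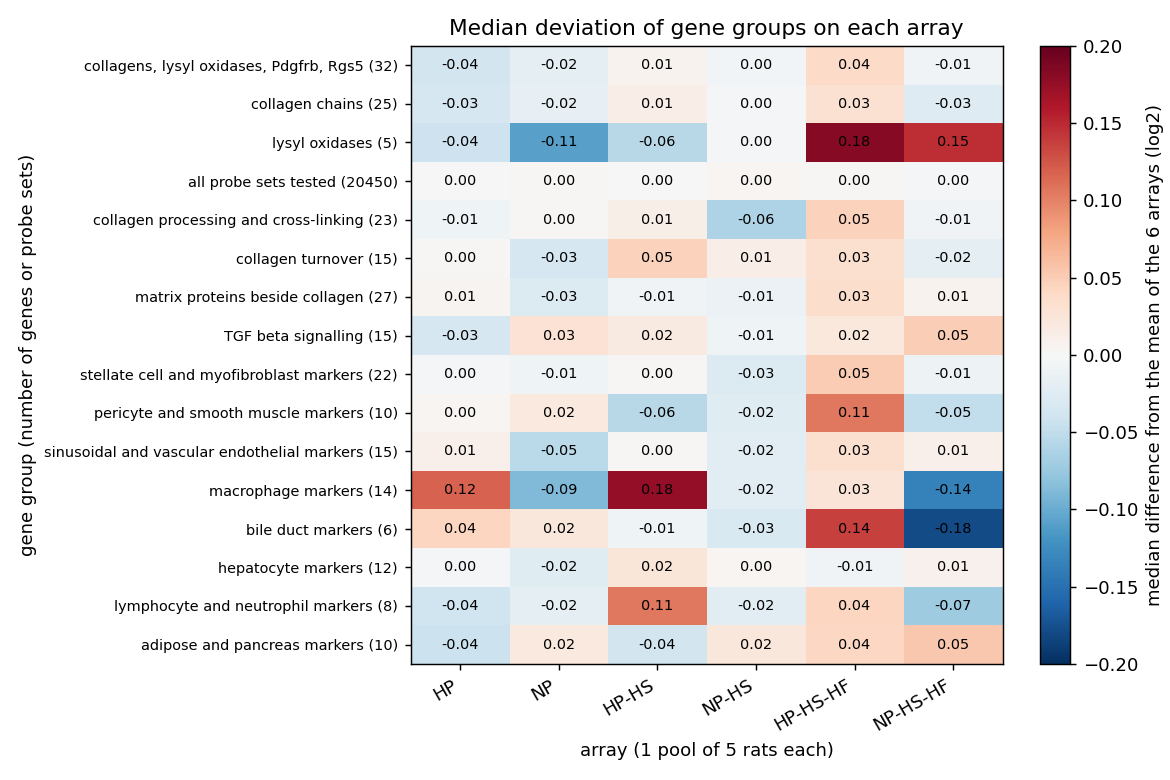
Median over the genes of a group of the difference between each array and the gene's own mean over the 6 arrays (log2), with the number of genes or probe sets in brackets. The lysyl oxidases reach 0.18 on HP-HS-HF, collagen chains stay between -0.03 and 0.03, and macrophage and bile duct markers have the largest medians among the marker groups.

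The pericyte and smooth muscle markers differed among themselves. Rgs4, the direct neighbour of Rgs5 among protein-coding genes in GRCr8 and a related regulator, was 6.31 on HP, against 5.66 on NP, 5.97 on HP-HS, against 5.79 on NP-HS, and 7.30 on HP-HS-HF, against 5.79 on NP-HS-HF. Its HP-HS-HF array stood 0.99 above the next. High protein was above normal protein in 3 of 3 backgrounds, as it was for 14.6 percent of all probe sets tested. The fitted protein difference of Rgs4 was 0.78 ± 0.228 (SE, limma adjusted p = 0.414). This difference was 0.41 without HP-HS-HF, and also without NP-HS-HF. Abcc9, a subunit of the potassium channel of pericytes, was 7.28 on HP, against 7.10 on NP, 7.33 on HP-HS, against 7.05 on NP-HS, and 7.70 on HP-HS-HF, against 7.25 on NP-HS-HF. Its protein difference was 0.31 ± 0.077 (SE, 3 pairs; limma adjusted p = 0.339), and that of its channel partner and neighbour Kcnj8 was 0.18 ± 0.071. Of the 10 pericyte and smooth muscle markers 4 had an unadjusted p under 0.05 for protein, all with higher values, against 8.71 percent of all probe sets tested, and 0 passed after adjustment. The 4 were Rgs4, Abcc9, Kcnj8 and Myh11, and Myh11 is in the stellate list too. The adhesion molecule Mcam and the receptor Notch3 of the same list were at -0.18 and -0.13 for protein. The proteoglycan Cspg4 was at 0.08 for protein and at -0.31 for sucrose and fat (unadjusted p = 0.0234, limma adjusted p = 0.881), opposite in sign to Rgs5, and at -0.16 without NP-HS-HF.

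Among the enzymes that prepare collagen, P4ha1 had the lowest p. P4ha1, the catalytic subunit of the main collagen prolyl 4-hydroxylase, was 9.33 on HP, against 9.04 on NP, 9.47 on HP-HS, against 9.08 on NP-HS, and 9.94 on HP-HS-HF, against 9.17 on NP-HS-HF. High protein stood above normal protein in all 3 backgrounds, as it did for 14.6 percent of all probe sets tested. The fitted difference of P4ha1 was 0.49 ± 0.103 (SE, 3 pairs, unadjusted p = 0.0028, limma adjusted p = 0.244), not past the test. The lysyl hydroxylase Plod2 had a protein difference of 0.19 ± 0.121, while Plod1, Plod3, the collagen chaperone Serpinh1 and the proteinase enhancer Pcolce lay between -0.02 and 0.02. Bmp1, the proteinase that trims procollagen and activates lysyl oxidase, was at 0.23 ± 0.087 (limma adjusted p = 0.534), and at 0.14 without either high sucrose low fat array. Of the 23 genes of this list, 0 passed the test in any of the 4 effects in either direction, and 2 had an unadjusted p under 0.05 for protein, a share like the 8.71 percent of all probe sets tested.

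Matrix breakdown, other matrix proteins and the transforming growth factor beta pathway were described in the same way. Of 15 turnover genes 0 passed in any effect. The inhibitor Timp3 was at 0.29 ± 0.072 for protein (unadjusted p = 0.00597, limma adjusted p = 0.318), the protease Ctsk at 0.28 ± 0.094, and the collagenases Mmp2 and Mmp14 at -0.05 and 0.03. Of 27 other matrix proteins 0 passed, and 1, Fbn1 of microfibrils, had an unadjusted p under 0.05 for protein, at 0.18. Of 15 genes of the transforming growth factor beta list 0 passed. Ccn1, a matricellular early gene, was at -0.26 ± 0.066 for protein (limma adjusted p = 0.337) and 0.32 for fat added to sucrose, and the signal transducer Smad3 was at -0.25 for protein (limma adjusted p = 0.375). The ligand Tgfb2 was at 0.25 for protein (limma adjusted p = 0.39), so the list held both signs. The medians of these 3 lists lay between -0.02 and 0.09 in the 4 effects.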

How the data were processed

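Liver RNA pools were measured on 6 Affymetrix whole-transcript arrays, 1 per diet. The deposited values are log2 expression per probe set, made with RMA per the submitters' processing notes; its version is not given in the sources used here. Probe sets were named from the platform annotation, through the brightest probe set of a symbol, and all 32 genes matched a RefSeq gene. Of 29214 probe sets, the 20450 with a mean above the 30th percentile were tested with limma 3.58.1 (R 4.3.3) in an additive fit of protein level and dietary background, with 2 residual degrees of freedom and Benjamini-Hochberg adjustment over all of them. No diet has a second array, so the residual spread behind the p-values comes only from how far the arrays depart from additivity. For each probe set limma draws this spread toward a value common to all, with a prior of 4.37 degrees of freedom. Values in every array are given for collagens I, III, IV and V, the lysyl oxidases, Pdgfrb, Rgs5, genes with an unadjusted p under 0.05, and the 12 largest ranges. From the lists, up to 4 genes per effect with the largest differences were named. Acta2, Lrat, Notch3, Mmp2, Mmp14, Plod1, Plod3, Serpinh1, Pcolce and the ranges of single collagen chains were added after their values were seen. The genes and lists were chosen with earlier results of these data known. Alternatives were the filter, probe set averaging, centring, the variance prior, the arrays fitted, the fold threshold and leaving out each array. Further ones, leaving Lox out of the median, ranges over 5 arrays, and the same settings for genes of 5 lists, were chosen after seeing the data.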

Additional observations from a re-analysis of the deposited data

How the results depend on the processing

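Under the 13 alternatives, 0 genes passed the limma test in any of the 4 effects, with 27 of the 32 tested under the filter at the 50th percentile and all 32 under the others, and the lowest adjusted p was 0.186 (Lox, sucrose and fat, without NP-HS-HF). The differences named for Lox, Rgs5, Pdgfrb, Col14a1 and Col6a4 kept their direction wherever they were tested, which for Col6a4 was 12 of the 13. In many of these settings direction could not change. The filter, the variance prior, the ordinary statistic and fitting the arrays of a contrast alone leave a fitted value as it is. Averaging probe sets could change only Col6a4, and leaving out an array only the contrasts that hold it. Leaving out each array gave Lox 0.39 to 0.97 for protein, 0.48 to 1.35 for sucrose, 0.50 to 1.38 for fat added and 1.41 to 2.29 for sucrose and fat. The median of the 32 genes lay between -0.01 and 0.04 for protein and between -0.0004 and 0.05 for sucrose. At 1.2-fold in place of 1.5-fold the counts for high against normal protein were 2, 2 and 3. For sucrose they were 3 and 2, for fat added 5 and 3, and for sucrose and fat 2 and 4. Over all probe sets, 9 passed for protein, against 51 with a variance trend, 48 without either HS-HF array, 16 after centring, 3 without the filter, and 0 with the ordinary statistic or without a low fat or HS array. Without NP-HS-HF, 17 passed for fat added and 12 for sucrose and fat. The cause was not tested. The fit already pairs arrays by background and protein level; without the background term the protein difference of Lox was 0.68 with a limma adjusted p of 0.774.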
